A study of Mus musculus with 3 samples.

Results

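The mRNA of 10 protease inhibitor genes was measured in Ba/F3, a mouse haematopoietic line that depends on interleukin-3 (IL-3). They are the clade B serpin genes Serpinb1a, Serpinb1b, Serpinb1c, Serpinb6a, Serpinb6b, Serpinb8, Serpinb9 and Serpinb9b, the cystatin gene Cst7 and the gene Slpi. The members were listed by name, as inhibitors of neutrophil serine proteases, granzymes and cathepsins. All 10 members were found among the 55214 genes measured. The samples were 3 replicates by their titles, called cultures here, 1 library each, all kept at 37 °C and 5% CO2. Their medium was RPMI containing penicillin-streptomycin, 10% FCS and 0.2 ng/mL recombinant murine IL-3. They form 1 group, with no treated or untreated counterpart, and carry no alteration that the labels name. Ba/F3 is an established line, so the values describe that line and not primary cells. The study concerns killing of tumour cells by neutrophils in the presence of IgA, so the inhibitors are read here on the side of the target cell.

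Clade B serpins lack a classical secretion signal and act inside the cell. Those that inhibit proteases present a reactive centre loop as bait: the protease cuts the loop, stays bound to it and is pulled out of shape. Whether each gene listed here encodes such an inhibitor was not tested. The residues of the loop set which protease is caught. Cystatins block papain-like cysteine proteases by wedging into the active site. Cst7 encodes cystatin F, which is sorted to endosomes and lysosomes and restrains cathepsin C, the enzyme that activates granzymes and neutrophil serine proteases. Slpi encodes a secreted inhibitor of elastase and cathepsin G with whey acidic protein (WAP) domains, so Cst7 and Slpi enter the secretory pathway and are not cytosolic like the serpins.

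The reactive loops are shown first, because there the related serpin copies were less alike than over their whole coding sequence. Each stretch below is coding sequence of GRCm38, 5′ to 3′ along the transcript, from the hinge codons for glycine, threonine and glutamate to a conserved end. Capitals mark the loop after the first 8 codons and before the last 4. Serpinb9 (chr13:33015699-33015782, plus strand, exon 8 of 8) and Serpinb9b (chr13:33039802-33039894, plus strand, exon 7 of 7) are a read and a scarcely read copy. Serpinb6a (chr13:33918107-33918193, minus strand, exon 8 of 8) and Serpinb6b (chr13:32978207-32978287, plus strand, exon 7 of 7) are another such set. Serpinb1a (chr13:32842884-32842970, minus strand, exon 7 of 7), Serpinb1b (chr13:33093773-33093868, plus strand, exon 7 of 7) and Serpinb1c (chr13:32881899-32881982, minus strand, exon 7 of 7) form the third.
Serpinb9: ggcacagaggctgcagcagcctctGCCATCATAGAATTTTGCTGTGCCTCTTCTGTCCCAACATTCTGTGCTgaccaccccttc
Serpinb9b: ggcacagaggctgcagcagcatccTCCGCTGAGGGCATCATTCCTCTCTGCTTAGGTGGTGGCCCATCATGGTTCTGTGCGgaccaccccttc
Serpinb6a: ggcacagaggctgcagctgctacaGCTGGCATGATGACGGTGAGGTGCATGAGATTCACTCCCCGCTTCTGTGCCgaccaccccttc
Serpinb6b: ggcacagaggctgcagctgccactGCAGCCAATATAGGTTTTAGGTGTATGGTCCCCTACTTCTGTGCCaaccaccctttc
Serpinb1a: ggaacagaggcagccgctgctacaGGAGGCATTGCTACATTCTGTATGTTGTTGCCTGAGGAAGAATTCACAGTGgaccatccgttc
Serpinb1b: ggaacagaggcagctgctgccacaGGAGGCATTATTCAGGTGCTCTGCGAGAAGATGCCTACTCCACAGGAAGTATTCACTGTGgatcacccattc
Serpinb1c: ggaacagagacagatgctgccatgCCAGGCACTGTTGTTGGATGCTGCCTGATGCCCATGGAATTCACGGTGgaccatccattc

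In each family the loop was less alike than the gene around it. The whole coding sequences of Serpinb9 and Serpinb9b were 86.3% identical over aligned bases, and the capital stretch of the loop 66.7%. For Serpinb6a and Serpinb6b the values were 86.2% and 64.4%. Serpinb1b and Serpinb1c matched Serpinb1a at 90.4% and 89.8% over the coding sequence, and at 70.6% and 72.7% over the loop. The loop also varied in length, with 16 codons in Serpinb9 and 19 in Serpinb9b, 17 in Serpinb6a and 15 in Serpinb6b, and 17, 20 and 16 in Serpinb1a, Serpinb1b and Serpinb1c. The hinge codons differed from those of the family's read copy by 2 of 24 bases in Serpinb9b, Serpinb6b and Serpinb1b and by 6 of 24 in Serpinb1c. These are properties of the reference sequence, not of the Ba/F3 genome.

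The libraries held 32044889, 33880292 and 37180883 reads in cultures 1, 2 and 3. Levels are counts per 1000000 reads of the culture (CPM), and their errors are SDs over the cultures (n = 3). A gene was called detected at 1 CPM or more in all 3 cultures. For a gene with 0 reads the upper limit was 3 reads, worth 0.0936, 0.0885 and 0.0807 CPM in the respective cultures. Such limits and intervals cover counting error only, since no molecular identifiers are named. The deposited rows pair the cultures' values with different genes, and culture 3 was read by its own gene labels. Values of culture 3, and every comparison between cultures, rest on that reading, which a check favoured among the most abundant genes. In the read range of the 4 detected members the difference was smaller by row. There the check cannot decide, because rows are partly ordered by level. Levels are ranked between genes only as CPM per kilobase of annotated exons, while detection and shares of reads take no account of length. In these bulk samples, fewer cells expressing a gene and less RNA per cell cannot be told apart.

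Of the 10 members, 4 were detected: Cst7, Slpi, Serpinb9 and Serpinb6a. The background was 19.9% of all genes and 45.9% of protein-coding genes, so the members' count lay near that of protein-coding genes. The median of the members was 0.287 CPM per kilobase, beside 0.0789 over all protein-coding genes and 8.65 over detected genes. Serpinb1b, Serpinb1c and Serpinb8 had no read in any culture. Serpinb1a, Serpinb6b and Serpinb9b were read below the threshold in every culture. Serpinb6a was the lowest member above the threshold (lowest culture 4.14 CPM) and Serpinb1a the highest below it (highest culture 0.861 CPM). At a threshold of 5 CPM the count fell to 2 members, Cst7 and Slpi.

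**Figure D1:**
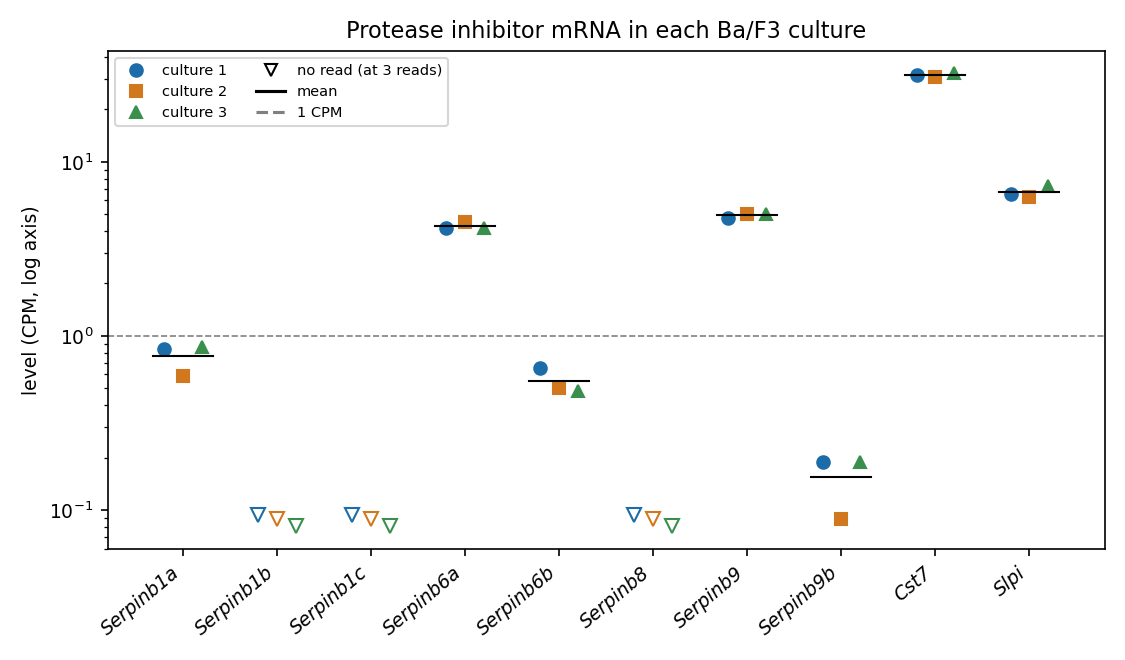
Level of each inhibitor gene (CPM, log axis) in cultures 1, 2 and 3; bars are means, open triangles mark genes without a read at the value of 3 reads, and the dashed line is 1 CPM. Cst7 has a mean of 31.5 CPM, Slpi, Serpinb9 and Serpinb6a have means between 4.27 and 6.67 CPM, and Serpinb1b, Serpinb1c and Serpinb8 have no read.

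Cst7 (ENSMUSG00000068129, chromosome 2, 150570415 to 150578944, plus strand) had the highest level per kilobase of the members. It stood at 31.6, 30.7 and 32.2 CPM in cultures 1, 2 and 3, a mean of 31.5 ± 0.767, from 1013, 1040 and 1198 reads. The cultures lay close together, the highest being 1.05 times the lowest. Per kilobase its level was 31.96 ± 0.778, the 85.6 percentile of detected genes. No 50-base window of its transcripts occurred in a transcript of another gene, and no annotated exon overlapped it, so no other annotated gene matched its reads exactly.

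Slpi (ENSMUSG00000017002, chromosome 2, 164354070 to 164389095, minus strand) was read at 6.49, 6.26 and 7.26 CPM, a mean of 6.67 ± 0.526. Culture 3 was the highest, at 1.16 times culture 2. Per kilobase Slpi stood at 5.65 ± 0.445, the 36.2 percentile of detected genes. Slpi is known from epithelia as well as from myeloid cells. Of the 7 epithelial markers, 0 were detected, with a summed level of 0.161 to 0.218 CPM over the cultures. Epcam, Krt5 and Krt14 had no read.

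Serpinb9 (ENSMUSG00000045827, chromosome 13, 33003250 to 33017957, plus strand), the inhibitor of granzyme B that cytotoxic lymphocytes use to survive their own granules, was detected in all 3 cultures. Its level was 4.77, 5.02 and 5.00 CPM, a mean of 4.93 ± 0.136, from 153, 170 and 186 reads. The highest culture was 1.05 times the lowest, and the gene lay at the 9.63 percentile of detected genes per kilobase. Its neighbour Serpinb9b (ENSMUSG00000021403, chromosome 13, 33027416 to 33041884, plus strand), described as an inhibitor of granzyme M and lying 9.46 kb further along the chromosome, had 6, 3 and 7 reads, a mean of 0.155 ± 0.0573 CPM. Over all cultures the ratio of Serpinb9 to Serpinb9b per kilobase was 30.5 (exact 95% interval 18.6 to 53.8, counting error only). Only 13 of 3442 windows of 50 bases in Serpinb9 were shared with Serpinb9b, so nearly all 50-base reads could be assigned to 1 of the copies.

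Serpinb6a (ENSMUSG00000060147, chromosome 13, 33917918 to 34002794, minus strand) encodes the mouse counterpart of an inhibitor of cathepsin G. It stood at 4.18, 4.49 and 4.14 CPM, a mean of 4.27 ± 0.188, from 134, 152 and 154 reads. Its exons overlapped exons of Nqo2, 1110046J04Rik and Ripk1 on the other strand over 29.3% of their bases, and 25.1% of its 50-base windows occurred in transcripts of other genes. Nqo2, a quinone reductase gene, was itself read at 36.1 ± 1.10 CPM. The kit marks strand, but the strand setting of the counting is not given in the sources used here, so reads of Serpinb6a and of these genes cannot be told apart over the shared bases. The level of Serpinb6a is therefore uncertain.

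Serpinb6b (ENSMUSG00000042842, chromosome 13, 32965209 to 32979067, plus strand), the related copy, had 21, 17 and 18 reads, or 0.547 ± 0.0942 CPM. Per kilobase of all exons, Serpinb6a was 3.33 ± 0.577 times Serpinb6b. The annotation gives Serpinb6a 17 transcripts and 5409 bases of exon, while its longest protein-coding transcript has 1654 bases. With the longest protein-coding transcript of each gene as length, the ratio was 10.6. All reads of Serpinb6a were kept in it, including any from outside that transcript, so it may be too high.

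Serpinb1a (ENSMUSG00000044734, chromosome 13, 32842092 to 32851185, minus strand) encodes an inhibitor of elastase, proteinase 3 and cathepsin G that protects granulocytes from their own proteases. It had 27, 20 and 32 reads, or 0.843, 0.590 and 0.861 CPM, a mean of 0.765 ± 0.151, and all cultures lay below the threshold. Its copies Serpinb1b (ENSMUSG00000051029, chromosome 13, 33078575 to 33094380, plus strand) and Serpinb1c (ENSMUSG00000079049, chromosome 13, 32881434 to 32898211, minus strand) had no read. Serpinb1a was at least 5.58-fold higher than Serpinb1b and at least 4.73-fold higher than Serpinb1c per kilobase, taking 3 reads per library as the limit for the silent copy. At least 93.7% of the 50-base windows of each of these genes occurred in no other gene's transcripts. Serpinb8 (ENSMUSG00000026315, chromosome 1, 107590006 to 107610484, plus strand), whose human counterpart inhibits furin, had no read either, although 99.8% of its windows were its own.

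**Figure D2:**
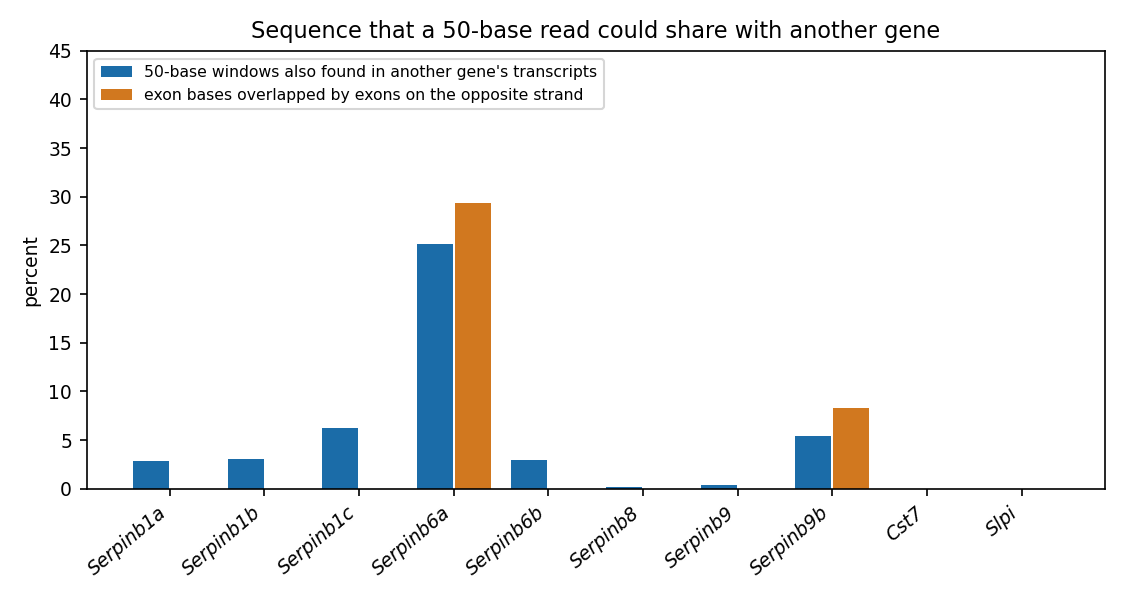
For each inhibitor gene, the percent of its 50-base transcript windows that also occur in transcripts of another gene (blue bars) and the percent of its exon bases overlapped by exons on the opposite strand (orange bars). Serpinb6a stands apart with 25.1% and 29.3%, and Cst7 and Slpi are at 0 on both.

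Per kilobase of exons the order of the members was Cst7 at 31.96, Slpi at 5.65, Serpinb9 at 1.41, Serpinb6a at 0.789, Serpinb1a at 0.332, Serpinb6b at 0.242 and Serpinb9b at 0.0462. Each was above the next in every culture, and the ranges over the cultures overlapped only for the neighbours Serpinb1a and Serpinb6b. Cst7 was 5.67 ± 0.312 times Slpi, and Slpi 4.01 ± 0.303 times Serpinb9. With the longest protein-coding transcript as the length, Serpinb6a came to 2.58 ± 0.114 and Serpinb9 to 1.42 ± 0.0392, which reverses their order. The other neighbours kept theirs. The reads of Serpinb6a were those of the whole gene, including bases shared with the other strand, so its 2.58 may be too high.

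Between the cultures the highest level was 1.05 to 1.16 times the lowest in the 4 detected members. The ratio was 1.46 in Serpinb1a, 1.35 in Serpinb6b and 2.13 in Serpinb9b, which had few reads. A chi-square test of Poisson heterogeneity, run on all genes that averaged 10 reads or more, with Benjamini-Hochberg adjustment, covered 6 of the 10 members and called 0 of them. At an unadjusted p under 0.05 the count was also 0. Of all genes tested, 32.7% were called, and 21.3% of those with no more reads than Cst7. Adjusted p ran from 0.379 for Slpi to 0.929 for Serpinb9. For Cst7 the coefficient of variation over the cultures was 2.44%, beside 3.05% from counting alone, and for Slpi 7.88% beside 6.63%. It was 19.8% beside 19.6% for Serpinb1a, 17.2% beside 23.0% for Serpinb6b and 37.0% beside 43.5% for Serpinb9b. The missing calls do not show that the cultures were equal. The test compares libraries and not conditions, and Serpinb1b, Serpinb1c, Serpinb8 and Serpinb9b had too few reads to enter it.

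Of the 27 genes of the wider clade B family, taken by symbol, 2 were detected, Serpinb9 and Serpinb6a, and 16 had no read in any culture. Gm11397 in the chromosome 13 cluster shares 1190 of the 1863 windows of Serpinb9f but was counted outside the family because of its name. The family summed to 11.05 ± 0.152 CPM. Serpinb9 and Serpinb6a together took 82.0%, 84.7% and 83.1% of these reads. Their Wilson 95% intervals ran from 77.6 to 85.7, from 80.8 to 88.0 and from 79.2 to 86.4, and all overlapped. The shares and the family sum are uncertain beyond these intervals, because part of the Serpinb6a reads may belong to genes on the other strand. None of the 19 clade B genes outside the members was detected, and 13 of them had no read. Some of these genes share much sequence: 78.7% of the 50-base windows of Serpinb9f, 54.8% of Serpinb9g, 30.8% of Serpinb9d and 28.4% of Serpinb9e occurred in other genes. How reads with several matches were counted is not stated, so low or absent reads in these 4 genes are uncertain.

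In the chromosome 13 cluster, between 32842092 and 34002794, 9 of 15 clade B genes had reads. The chromosome 1 cluster, between 106861173 and 107610484, holds Serpinb8 among 12 clade B genes, of which 2 had reads, 5 reads in all. The chromosome 13 interval held 25 other genes, of which 2 were detected: Nqo2, which lies within the span of Serpinb6a on the other strand, and the long noncoding RNA gene Gm6093, at 423, 278 and 257 CPM. Per kilobase the level of Gm6093 exceeded that of every serpin in the interval in all cultures, and it was highest in culture 1. Exons on the other strand overlap 11.6% of its bases.

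**Figure D3:**
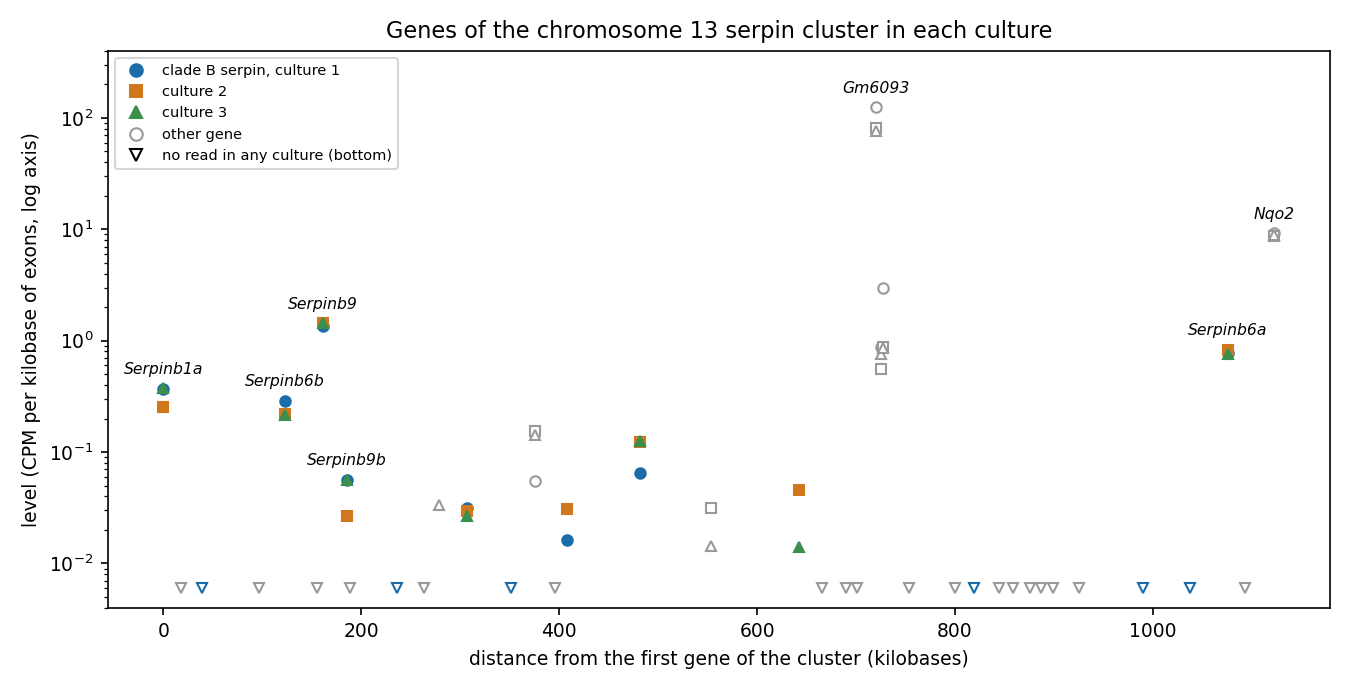
Level (CPM per kilobase of exons, log axis) of each gene of the chromosome 13 interval against its distance in kilobases from the first gene, by culture; filled symbols are clade B serpins, open grey symbols other genes, and triangles at the bottom genes without a read. Among the serpins only Serpinb9 and Serpinb6a are detected, while Gm6093 and Nqo2 lie above them.

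Inhibitors of related kinds were set beside the members. Of 14 serpins of other clades, 2 were detected. Among them was Serpina3g, an inhibitor of cathepsins in leukocytes, which stood at 15.04 ± 0.343 CPM per kilobase, above every clade B serpin in all cultures. For Serpina3g, 15.5% of the 50-base windows occurred in other genes, among them the related Serpina3h, Serpina3i and Serpina3f, so its level is uncertain. Of 11 other cystatins, 2 were detected. The secreted cystatin C gene Cst3 stood at 170 ± 17.1 CPM per kilobase, above Cst7, and the cytosolic stefin B gene Cstb at 31.5 ± 1.83, with a range that overlapped that of Cst7. Cst3 was called between the cultures by the chi-square test (adjusted p = 7.5e-32), with culture 3 the highest. Of 8 other WAP genes, 0 were detected.

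The protease genes, listed by family and not as targets of the members, were unevenly read. Of 4 neutrophil serine protease genes, Prtn3 (proteinase 3) stood at 130, 132 and 159 CPM and Prss57 at 84.4, 86.5 and 88.6. Prtn3 was called between the cultures by the chi-square test (adjusted p = 1.9e-28, highest to lowest 1.23 times), with culture 3 the highest. Such calls were common: 32.7% of all genes tested, and 40.2% of those averaging 100 reads or more. Cultures 1 and 2 were close, so the call for Prtn3 rests on how culture 3 was read. Of 6 cysteine cathepsin and legumain genes tested, 2 were called as well. Exons of Plppr3 overlap 9.18% of the bases of Prtn3 on the other strand. For Prss57, 40.7% of the exon bases overlap exons of Fstl3 on the other strand, so its level is uncertain for the reason given for Serpinb6a. The elastase gene Elane was at 0.811, 0.797 and 0.807 CPM, below the threshold, and the cathepsin G gene Ctsg had no read. Of 10 granzyme genes, Gzmb (1.997, 1.74 and 1.53 CPM) and Gzmm (1.47, 1.18 and 1.18 CPM) were detected, and 7 had no read. Of 11 cysteine cathepsin and legumain genes, 5 were detected. Ctsz (95.3 ± 3.75), Ctsc (72.8 ± 1.01), Ctsb (45.5 ± 1.26) and Lgmn (3.41 ± 0.0975 CPM per kilobase) were the highest, and Ctsl and Ctsw had no read. Exons of Fdft1 overlap 12.8% of the bases of Ctsb on the other strand.

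**Figure D4:**
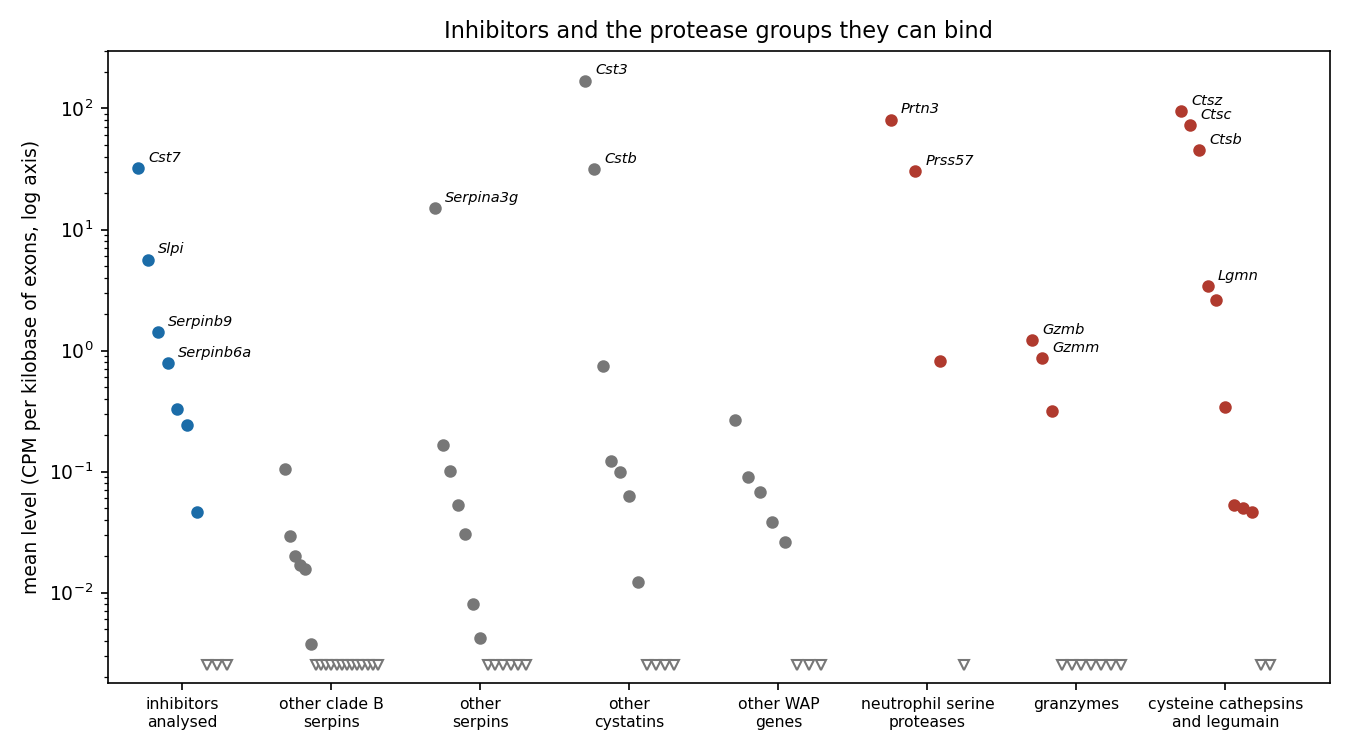
Mean level (CPM per kilobase of exons, log axis) of each gene by list, except 1 of the other serpins that is not drawn; blue points are the inhibitors described here, grey points other inhibitors, red points proteases, and open triangles at the bottom genes without a read. Cst7, at 31.96, lies among the cathepsins and the detected neutrophil serine proteases, and Serpinb9, at 1.41, close to Gzmb at 1.22.

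Inhibitor and protease were compared within each culture as a ratio of levels per kilobase. Both sides are mRNA of the Ba/F3 cultures themselves, so the ratios say nothing of proteases that a neutrophil would bring. They carry no test. Serpinb9 to Gzmb was 0.983, 1.18 and 1.34, a mean of 1.17 ± 0.180, and the exact 95% interval of the pooled reads, 0.979 to 1.39, included 1. Serpinb9b to Gzmm was 0.0537 on pooled reads (exact 95% interval 0.0298 to 0.0904). The first ratio was above 1 in cultures 2 and 3 and below it in culture 1, and the second was below 0.1 in every culture.

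For the serine proteases, Prtn3 stood 250 ± 46.3 times above Serpinb1a per kilobase of all exons. With the longest protein-coding transcripts as length the fold was 351 ± 65.1. Elane was 2.54 ± 0.541 times Serpinb1a, and Slpi 6.91 ± 0.521 times Elane. Against Ctsg, which had no read, Slpi was at least 60.7-fold higher and Serpinb1a at least 2.99-fold higher. Prtn3 was above Serpinb1a, and Slpi above Elane, in all 3 cultures.

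Ctsc, which encodes cathepsin C, was 2.28 ± 0.0688 times Cst7 per kilobase of all exons and 4.11 ± 0.124 times with the longest protein-coding transcripts as length. Cst7 was 9.38 ± 0.462 times Lgmn, the legumain gene. Furin, the proprotein convertase gene, was at 302 ± 23.4 CPM and at least 1599.6-fold higher than Serpinb8 per kilobase. Furin was called between the cultures by the chi-square test (adjusted p = 6.3e-27), with culture 3 the highest.

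The label Ba/F3 was checked on 7 genes, of which 6 were detected. They were the leukocyte gene Ptprc, the IL-3 receptor genes Csf2rb, Csf2rb2 and Il3ra, the transcription factor gene Spi1 and the B lineage gene Cd79b. Cd79b was the lowest of them in CPM (19.5 ± 1.22), and Spi1 stood at 136 ± 12.4. The pre-B gene Vpreb1 was below the threshold. The chi-square test covered the 6 detected genes and called 5 between the cultures, beside 40.2% of all genes averaging 100 reads or more. Of 8 cytotoxic lymphocyte markers, 0 were detected (summed level 0.413 to 0.593 CPM), and Cd8a, Ncr1, Prf1 and Gzma had no read. Of 5 fibroblast markers, 0 were detected (0.767 to 0.999 CPM). Of 10 neutrophil granule markers, 3 were detected (77.0 to 81.2 CPM, mostly Mpo at 69.9 ± 2.06, whose exons share bases with Gm11505 on the other strand), and of 6 macrophage markers 4 (124 to 129 CPM, mostly Cd68 at 88.3 ± 1.60). Their part in the inhibitor levels was not tested.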

How the data were processed

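Polyadenylated RNA of 3 Ba/F3 cultures was sequenced from a strand-marking kit as 50-base single-end reads, per the labels and the series' design text. These sources name HISAT2 on GRCm38 and the authors' own counting program, GenSum. How strand and multiply matching reads were handled, and which gene annotation was used, is not stated there.

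The authors deposited log2(reads per 10000000 + 1), and undoing the log2 gave columns that sum to 10000000. Whole reads were recovered for 100% of entries within 0.01 of a whole number. In 23001 rows with reads, identifier and symbol pointed to 1 gene 0 times. Cultures 1 and 2 were read by identifier, and culture 3 by coordinates (54909 rows) or symbol (334 rows) in GENCODE M21, with 243 rows left out. The choice was checked by the median absolute difference of culture 3 from the mean of the others in log2(CPM + 1). For 529 genes of 10000 to 100000 reads it was 0.0492 by gene and 0.150 by row. For 2471 genes of 100 CPM or more it was 0.0465 and 0.0537. For 9559 genes of 100 to 10000 reads, the range of the 4 detected members, it was 0.0647 by gene and 0.0531 by row. Rows are partly ordered by level: 70.6% to 70.9% of rows in each column do not exceed the row before. Values on 1 row can therefore be alike whatever their genes, and the smaller difference by row does not decide between the readings in that range. The first range was picked after the second had separated the readings little. The authors' average is taken over rows and was not used.

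CPM were computed on column sums. Python 3.11.15, numpy 2.4.6, scipy 1.17.1 and pandas 2.3.3 were used. The Poisson heterogeneity test was tested on simulated data. It measures the spread between these 3 libraries, with 1 group and no contrast. Windows of 50 bases were matched exactly, on both strands, to GENCODE M21 transcripts, from which the printed sequences also come. The members, lists and pairs were chosen with earlier results of these data known. Chosen after the data were seen were the longest protein-coding transcript, the comparison of serpin copies, the window and overlap checks, the background of genes with no more reads than Cst7 and the loop stretch, whose hinge pattern was loosened because Serpinb1c did not match it. Named are all members, both genes of each of 11 pairs, up to 4 detected and 3 undetected genes of each list, and detected genes inside the serpin clusters. Of the Ba/F3 list all 6 detected genes are named. The values of 1 detected serpin of another clade are not reported here.

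Alternatives covered thresholds of 0.5 and 5 CPM, detection in any culture, trimmed mean of M values, median of ratios, no read minimum and one of 100, pseudocounts of 0.1 and 5 in place of 1, gene lengths, rows as deposited and leaving out each culture.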

Additional observations from a re-analysis of the deposited data

How the results depend on the processing

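The count of 4 detected members was 2 at 5 CPM and 5 at 0.5 CPM, where Serpinb1a was added. It was 4 under detection in any culture, both other scalings and the rows as deposited, and 4 to 4 without each culture in turn. The count of members beyond counting noise was 0 under each alternative run, and 0 to 0 without each culture. The lowest adjusted p of a member in these chi-square tests was 0.0530, for Slpi on the rows as deposited. On those rows culture 3 held 28.5 CPM of Cst7 in place of 32.2, and 7.91 of Slpi in place of 7.26. Serpinb6a was then 4.79 in place of 4.14, Serpinb9 4.98 in place of 5.00 and Serpinb1a 0.511 in place of 0.861. Both other scalings moved no culture by more than 0.018 on the log2 scale. Serpinb6a was 0.789 CPM per kilobase of all exons, 1.95 of the longest transcript and 2.58 of the longest protein-coding transcript. The ratio of Cst7 to Ctsc was 0.439, and 0.243 on either transcript length. The log2 difference between the highest and lowest culture depended on the pseudocount for low genes: for Serpinb1a it was 0.23, 0.48 with a pseudocount of 0.1 and 0.07 with 5. Without each culture in turn, none of the 7 member levels and 7 inhibitor to protease ratios recomputed moved by over 1.5 times. The ratios between serpin copies or neighbours in the order, the fold bounds and the levels of other genes were not recomputed. Depth limits genes such as Serpinb9b, with 3 reads in culture 2. No paired analysis was possible because there is 1 group.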
